A study of Mus musculus with 2 samples.

Results

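Transcripts of the bone morphogenetic protein (BMP) pathway and of the Id genes were followed in organoids grown from the urothelium, the bladder lining, of normal mice. The set held 10 genes, of 31053 gene identifiers in the count matrices. They were chosen by symbol as 3 ligands (Bmp2, Bmp4 and Bmp7), 1 receptor (Bmpr1a), 3 inhibitors (Smad6, Bambi and Nbl1) and 3 target genes (Id1, Id2 and Id3). All 10 were found once in both libraries, and all 10 had at least 100 UMIs over both. A UMI (unique molecular identifier) tags an RNA molecule before amplification, so that its copies are counted once.

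Organoids came from C57BL/6 mice of the genotype labelled WT, aged 8 to 10 weeks, and grew in Matrigel. Proliferative organoids (P) stayed in complete medium with EGF, WNT3A, RSPO1, Noggin and the compound LY2157299, which inhibits the TGF-β receptor. Differentiated organoids (D) spent a first week in that medium and then another in medium from which all 5 had been left out. Each condition was measured as 1 droplet library of single-cell RNA, so P and D could not be compared against replicates, and neither p-values nor standard errors are given. Noggin is an extracellular antagonist that binds BMP ligands, and its removal is the question here. Removal of Noggin cannot be told apart from removal of the other 4 factors or from the change of cell states that came with them.

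BMP ligands bind pairs of type I and type II serine/threonine kinase receptors, which phosphorylate SMAD1, SMAD5 and SMAD9. Joined by SMAD4, these enter the nucleus and bind DNA, and the Id genes are among their best known direct targets. Id proteins lack a DNA-binding region and hold E proteins and other helix-loop-helix factors off DNA. The pathway also induces its own inhibitors: SMAD6 inside the cell and the decoy receptor BAMBI at the membrane, while NBL1 is secreted and binds BMP ligands.

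The filter (over 800 genes, no more than 12% mitochondrial UMIs) kept 6818 cells of P, with a median of 3405.5 UMIs, and 4896 of D, with a median of 3227.5. Their UMIs summed to 26681469 and 20305621. A share over 12% mitochondrial UMIs was found in 5.81% of all barcodes in P and 27.3% in D. The libraries shared 6 kept barcode sequences. Levels are in CPM, the UMIs of a gene scaled to 1000000 UMIs of the library or cluster. On this scale a gene can be higher because other transcripts are fewer: transcripts of ribosomal proteins made up 37.5% of the P library and 21.4% of the D library, and over 8939 genes that reached 100 UMIs in P and again in D the median log2 ratio (D over P) was 0.42. Values are therefore also given after subtraction of that shift. All intervals are exact, at 95%, and cover counting error only.

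Promoter sequence, from RefSeq on GRCm38.p6, was matched for 6 of the 10 genes (Id2, Id3, Bmp4, Smad6, Bmpr1a and Nbl1) as windows of 300 bases, 250 before and 50 after the annotated start. By the GENCODE annotation all 300 bases of the Id3 window are transcribed, 211 of Id2, 191 of Bmpr1a and 73 of Nbl1. In the Bmp4 and Smad6 windows it is 50. The windows are thus not all upstream sequence. Each window was searched on both strands for GTCTAGAC, a palindrome made of a pair of Smad-binding GTCT boxes, and for GGCGCC and GGCGTC, GC-rich motifs of the kind bound by SMAD1 and SMAD5. No match of one motif overlapped a match of another. Smad6, the inhibitor whose product blocks the pathway from inside the cell, is shown because its window held the palindrome, which starts 4 bases before the transcript start. Of all 32851 windows of that length 0.213% held it. Id3, the gene with the largest ratio of the 10, is shown by the 30 bases around its only GGCGTC, a motif that 10.5% of all windows held. The motifs are in capitals, and both sequences read 5′ to 3′ along the gene. The Smad6 stretch is chr9:64022056-64022309, minus strand, of which the last 4 bases are transcribed. The Id3 stretch is chr4:136143638-136143667, plus strand, and all 30 of its bases are transcribed by the GENCODE annotation.
Smad6: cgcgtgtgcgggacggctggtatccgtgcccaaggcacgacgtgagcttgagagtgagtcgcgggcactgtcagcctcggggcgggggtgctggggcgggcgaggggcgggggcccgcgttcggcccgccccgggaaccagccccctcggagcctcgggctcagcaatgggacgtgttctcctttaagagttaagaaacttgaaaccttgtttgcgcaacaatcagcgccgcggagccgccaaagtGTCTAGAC
Id3: tccgctgtcctcGGCGTCagaccagcctaa

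Among the 6 windows, GGCGCC was found in 3 (Id2, Bmpr1a and Nbl1), against 11.9% of all windows, and GGCGTC in 2 (Id2 and Id3). The Id2, Bmpr1a and Nbl1 windows have GC contents of 63.3%, 79.3% and 78.3%. Bmp4 held none of the 3 motifs. These matches describe letters in a window and say nothing of binding in these cells.

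The 10 genes did not share a direction between the libraries. Id1, Id3, Smad6 and Bambi were at least 2-fold higher in D, where 13.5% of the 10719 genes with at least 100 UMIs passed the same limit. Bmp7 was at least 2-fold higher in P, where 4.73% of genes passed. By role, all 3 ligands were lower in D, the receptor and all 3 Id genes were higher, and the inhibitors were split. The median log2 ratio of the 10 was 0.87, beside 0.41 over all genes tested, and 0.45 after the shift. After the shift, which moves every gene alike, the counts were 2 towards D and 3 towards P, where 5.64% and 8.65% of all genes passed: Id1 and Id3 stayed at least 2-fold higher in D, and Bmp2, Bmp4 and Bmp7 were at least 2-fold higher in P.

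**Figure D1:**
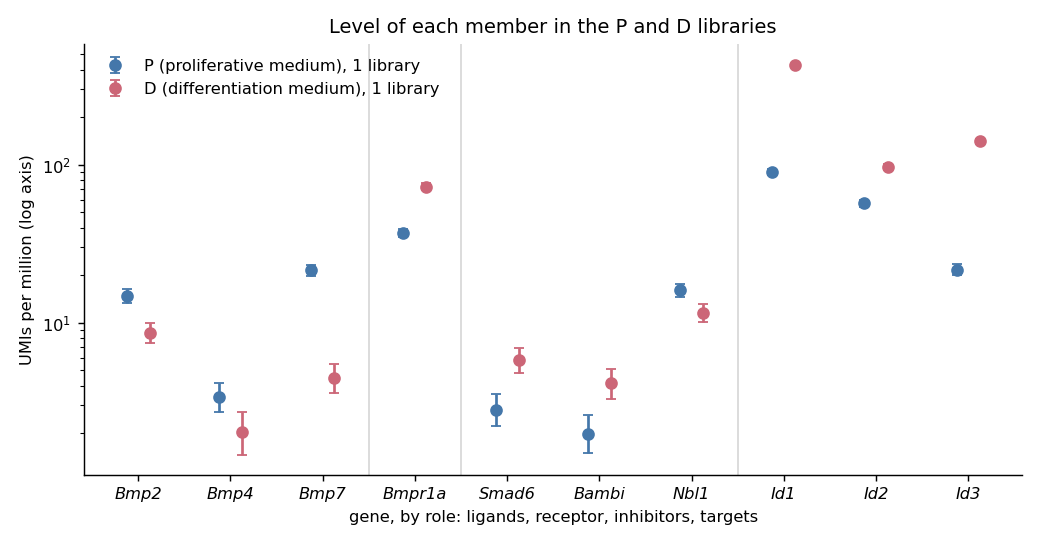
Level of each gene in CPM (log axis) in the P library (blue) and the D library (red), 1 library each, with exact 95% Poisson intervals for counting error. Id1 sits at 89.8 in P and 428 in D, Id3 at 21.7 and 141, and Bmp7 at 21.5 and 4.48.

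Bmp7 (ENSMUSG00000008999, chr2:172868012-172940321 on GRCm38) codes for a ligand widely made by epithelia. It gave 573 UMIs in P, against 91 in D, or 21.5 (19.8 to 23.3) and 4.48 (3.61 to 5.50) CPM. Its level in P was 4.79-fold that in D (3.84 to 6.05), a log2 ratio of -2.26, and only 1.52% of genes tested had a lower ratio. The share of kept cells with a Bmp7 UMI was 7.91% in P and 1.78% in D. With every cell thinned to 2100 UMIs, which left 6638 cells in P and 4417 in D, the shares were 4.67% (4.17 to 5.21%) and 1.04% (0.763 to 1.39%).

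Bmp2 (ENSMUSG00000027358, chr2:133552159-133562885), a ligand related in sequence to BMP4, had 396 UMIs in P and 175 in D. Its levels were 14.8 (13.4 to 16.4) and 8.62 (7.39 to 9.99) CPM, 1.72-fold higher in P (1.44 to 2.07). Bmp4 (ENSMUSG00000021835, chr14:46383520-46390669) was sparse, with 90 UMIs in P and 41 in D, or 3.37 (2.71 to 4.15) and 2.02 (1.45 to 2.74) CPM. That is 1.67-fold higher in P, with an interval from 1.14 to 2.48. An antisense gene, Gm15222, overlaps Bmp4 and had 127 UMIs in P, against 52 in D. The strand setting of the counting is not given in the sources used here, so Bmp4 is less certain than the others.

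Bmpr1a (ENSMUSG00000021796, chr14:34410734-34503341), a type I receptor for BMP2 and BMP4, was higher in D. It gave 990 UMIs in P, against 1474 in D, or 37.1 (34.8 to 39.5) and 72.6 (68.9 to 76.4) CPM. The ratio was 1.96-fold (1.80 to 2.12) towards D, just under the 2-fold limit, and 14.6% of genes tested had a higher ratio. After the shift its log2 ratio was 0.55. Its thinned share of positive cells was 7.38% in P and 13.6% in D.

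Among the inhibitors, Smad6 (ENSMUSG00000036867, chr9:63953076-64022059) had 75 UMIs in P, against 118 in D, or 2.81 (2.21 to 3.52) and 5.81 (4.81 to 6.96) CPM. The ratio was 2.07-fold towards D (1.53 to 2.80). Bambi (ENSMUSG00000024232) had 53 and 84 UMIs, or 1.99 (1.49 to 2.60) and 4.14 (3.30 to 5.12) CPM, a ratio of 2.08-fold (1.46 to 3.00). For both genes the interval of the ratio extends below 2-fold, and after the shift the log2 ratios were 0.63 and 0.64. Nbl1 (ENSMUSG00000041120, chr4:139082284-139092993) was the inhibitor with the lower level in D: 429 UMIs and 16.1 CPM (14.6 to 17.7) in P against 235 UMIs and 11.6 (10.1 to 13.2) in D. Its level in P was 1.39-fold that in D (1.18 to 1.64).

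Id1 (ENSMUSG00000042745, chr2:152736251-152737410) had 2397 UMIs in P and 8700 in D. Its level was 89.8 CPM (86.3 to 93.5) in P and 428 (419 to 438) in D, 4.77-fold higher (4.56 to 4.99). Id3 (ENSMUSG00000007872, chr4:136143497-136145755) had 578 and 2872 UMIs, or 21.7 (19.9 to 23.5) and 141 (136 to 147) CPM, 6.53-fold higher in D (5.97 to 7.15). In the ranking of all genes tested, 2.24% had a higher ratio than Id1 and 1.46% a higher ratio than Id3. Id2 (ENSMUSG00000020644, chr12:25093799-25097140) had 1524 and 1980 UMIs, or 57.1 (54.3 to 60.1) and 97.5 (93.3 to 102) CPM. Its ratio was 1.71-fold towards D (1.60 to 1.83), a position that 23.8% of genes tested exceeded, and 0.35 on the log2 scale after the shift. The interval of Id2 lies below those of Id1 and Id3.

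**Figure D2:**
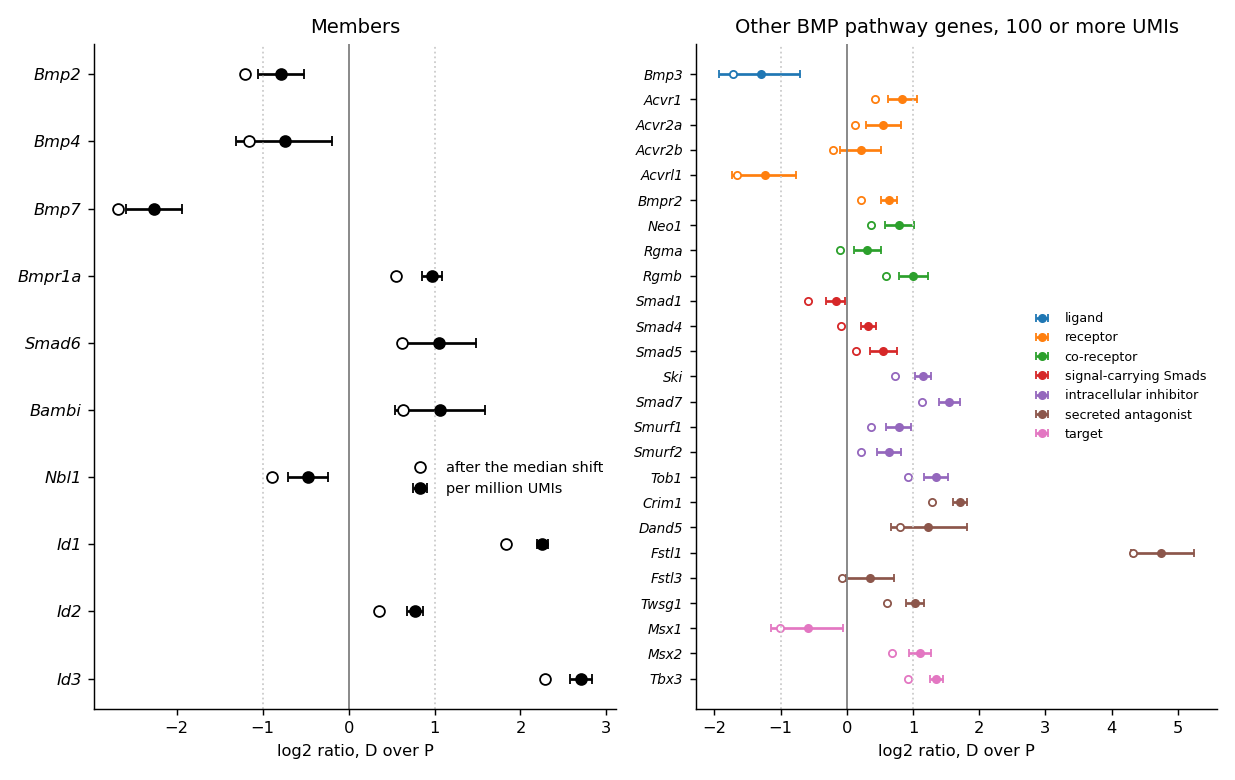
Log2 ratio (D over P) of the 10 genes (left) and of the 25 other BMP pathway genes with at least 100 UMIs (right, coloured by role). Filled points with exact 95% counting intervals are on the CPM scale, open points are after subtraction of the median shift of 0.42, and dotted lines mark 2-fold. Id1 and Id3 lie beyond 2-fold on both scales, and Bmp7 lies beyond it on the other side.

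Id1 and Id3 were higher in D both in the share of positive cells and in the UMIs that a positive cell held. After thinning, the share of cells with an Id1 UMI was 15.1% in P (14.2 to 16.0%) and 51.2% in D (49.7 to 52.7%). The corresponding Id3 shares were 3.89% (3.43 to 4.38%) and 20.9% (19.7 to 22.1%). Without thinning they were 23.6% and 65.0% for Id1, and 5.97% and 31.2% for Id3. Positive cells held a mean of 1.26 Id1 UMIs in P and 1.84 in D, and 1.26 and 1.52 Id3 UMIs. Cells with 3 or more Id1 UMIs made up 0.693% of P and 10.8% of D, and the highest counts in a cell were 6 and 13. Id2 was detected in 10.1% of thinned P cells and 16.0% of thinned D cells, with 1.13 and 1.21 UMIs in a positive cell.

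To follow the genes by cell state, each library was clustered on variable features from which the 10 genes and the pathway list below had been removed. P gave 4 clusters. P0 (2568 cells) had the highest Krt14 level of P and is led by Ctla2a. P1 (2475 cells) is led by squamous and intermediate markers (Sprr3, Cnfn and Psca). P2 (1421 cells) is led by Fmo2, Mmp7 and Krt1. P3 (354 cells) is proliferation-like, with 12 of 12 proliferation markers raised and Nusap1, Ccnb1, Cenpf, Birc5 and Cdc20 among its 10 leading genes. D gave 3 clusters. D0 (2824 cells) is led by Krt1 and Agr2. D1 (1320 cells) had the highest Krt14 level of D and is led by Acta2, Cav1 and Htra1. D2 (752 cells) is luminal-like, with 5 of 5 detected uroplakin and Krt20 markers raised and Upk3a and Upk3b among its leading genes. Clusters other than P3 and D2 are called by number.

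Id1 was graded across D and varied less across the 4 clusters of P. In P it was 102 CPM in P0, 101 in P3, 88.3 in P2 and 81.4 in P1, and the intervals of all neighbours in that order overlap. The highest and lowest differ by 1.25-fold (0.32 on the log2 scale), a span that was 0.95 on the log2 scale with clustering at a resolution of 0.4. In a joint clustering of both libraries, Id1 in P was 57.7 (50.1 to 66.2) in joint cluster 2 and between 89.9 and 106 in the others. In D it was 501 (488 to 513) in D0, 405 (386 to 425) in D1 and 238 (224 to 254) in D2, with no overlap between neighbours. The lowest D cluster, the luminal-like one, was still above each cluster of P.

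Id3 varied far more between states. In P it was 44.4 CPM (39.9 to 49.4) in P0 and 33.2 (24.9 to 43.5) in P3, whose intervals overlap, then 17.3 (13.8 to 21.4) in P2 and 7.45 (6.01 to 9.14) in P1. In D it was 328 (311 to 346) in D1, 116 (110 to 123) in D0 and 26.0 (21.3 to 31.4) in D2, a span of 12.6-fold. The luminal-like cluster D2 thus had an Id3 level between those of P clusters. The thinned share of Id3-positive cells was 41.8% (38.7 to 44.8%) in D1, 17.1% in D0 and 4.76% (3.34 to 6.56%) in D2. In P it ran from 0.977% in P1 to 7.06% in P3.

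In droplet data free RNA adds UMIs to cells that do not make a transcript, and no cell type lacking the Id genes was available as a reference. The lowest cluster shares of Id3-positive cells were 0.977% in P1 (median 4257 UMIs) and 4.76% in D2 (median 4356 UMIs). The part of free RNA in these levels was not tested. The proportion of Id1 to Id3 differed between clusters: it was 1.23 Id1 UMIs per Id3 UMI in D1 (1.15 to 1.33), 4.30 in D0 (4.06 to 4.56) and 9.17 in D2 (7.5 to 11.3). In P the proportion was 2.29 in P0 (2.02 to 2.61) and 10.9 in P1 (8.82 to 13.7).

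Id2 had another order. It was lowest in P0, at 23.0 CPM (19.7 to 26.6), and P3, at 35.1 (26.5 to 45.6), whose intervals overlap, and higher in P2, at 61.4, and P1, at 79.9 (75.0 to 85.1). In D it was 120 (114 to 126) in D0, 83.4 (74.7 to 92.7) in D2 and 45.9 (39.6 to 52.9) in D1. Where Krt14 and Id3 levels were highest, in P0 and D1, Id2 was lowest of its library.

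**Figure D3:**
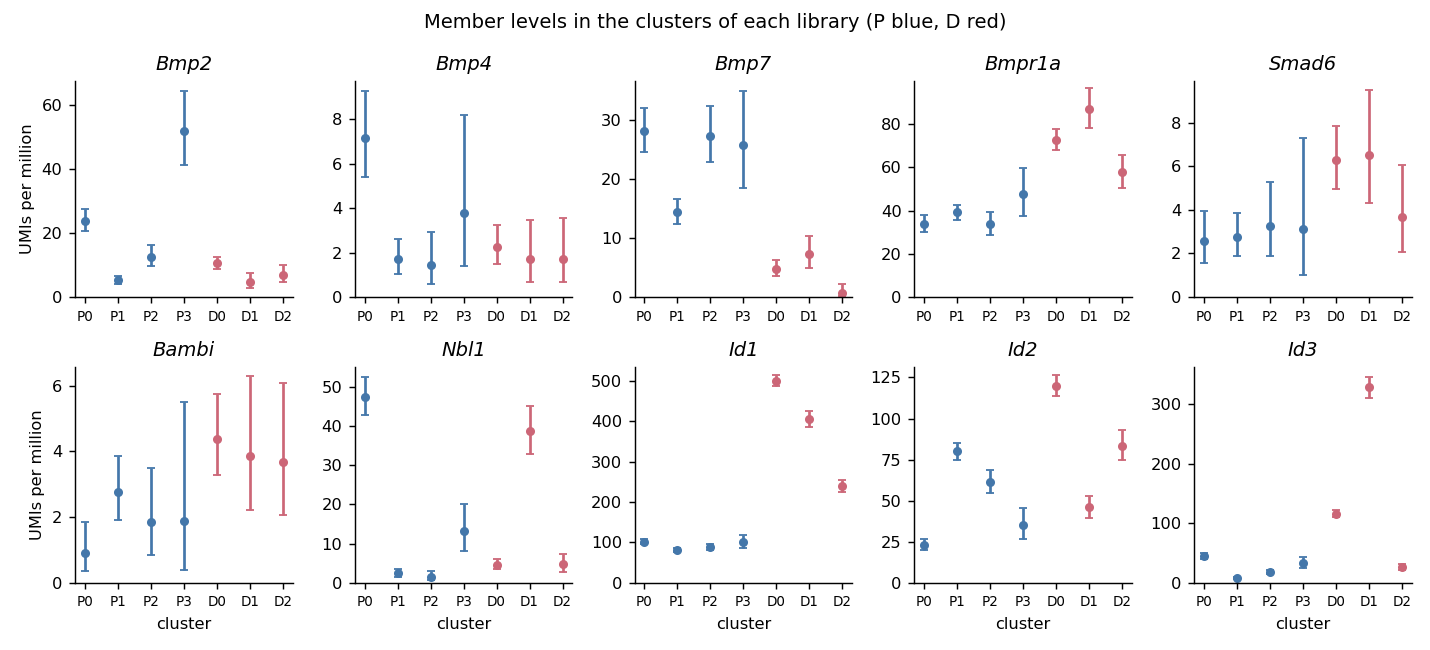
Level of each gene in CPM in the 4 clusters of P (blue) and the 3 clusters of D (red), with exact 95% Poisson intervals; each panel has its own axis from 0. Id1 separates all D clusters from all P clusters, Id3 peaks in D1 at 328, Id2 is lowest in P0 and D1 of the respective libraries, and Bmp2 peaks in P3 at 52.0.

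In P, Bmp2 was highest in the proliferation-like cluster P3, at 52.0 CPM (41.4 to 64.5), followed by 23.9 in P0, 12.6 in P2 and 5.18 in P1, with no overlap between neighbours and a span of 10.0-fold. In D it ran from 4.83 in D1 to 10.5 in D0. Counted by proliferation markers instead of clusters, the 339 thinned P cells with at least 2 of the 12 markers had 59.0 CPM of Bmp2 (42.5 to 79.7), and the 6141 cells with neither these nor a uroplakin had 14.1 (12.1 to 16.3). Bmp4 was 7.15 CPM in P0 (5.40 to 9.28) and between 1.43 and 3.76 in the other P clusters. Neighbours in that order overlap, but the intervals in P1 (1.05 to 2.60) and P2 (0.574 to 2.94) lie below that of P0. Bmp7 was 28.1, 27.3 and 25.7 in P0, P2 and P3, which overlap, and 14.4 (12.4 to 16.7) in P1. In D it was 7.25 in D1, 4.80 in D0 and 0.736 (0.152 to 2.15) in D2, where 3 UMIs were counted in 752 cells.

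In P, Nbl1 had the widest span of the 10 over the clusters. In P0 it reached 47.5 CPM (42.8 to 52.6), against 13.2 in P3, 2.35 in P1 and 1.43 in P2, a span of 33.3-fold (5.06 on the log2 scale, and 5.83 at a resolution of 0.4). In D it was 38.7 (32.9 to 45.2) in D1 and 4.66 and 4.63 in D2 and D0. The antagonist was thus concentrated in the Krt14-high cluster of each library, where Id3 was also highest. Bmpr1a was spread evenly by comparison: 33.8 to 47.6 across P clusters with overlapping neighbours, and 87.0, 72.7 and 57.6 in D1, D0 and D2. Smad6 and Bambi had at most 76 UMIs in any cluster, and all neighbours in their cluster orders overlap in both libraries. The highest and lowest P clusters of Bambi do not overlap, at 2.75 CPM (1.91 to 3.85) in P1 and 0.894 (0.359 to 1.84) in P0.

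Markers of other cell types were looked at beside Id3 in D1. Of the 6 fibroblast markers Dcn had 932 UMIs in D1, Col3a1 15, Col1a1 6 and Pdgfra 0. The summed fibroblast level was 231 CPM in D1 and 8.58 to 23.2 in the other D clusters. The 820 cells of D1 without a UMI of that list had an Id3 level of 311 (290 to 333) CPM and the 500 cells with one had 357 (328 to 387). Nbl1 was 38.5 and 38.9 in these cells. The muscle list also had its highest D level in D1, where 2 of its 2 detected markers were raised. The list summed to 190 CPM there, nearly all of it Acta2, against 4.22 in D0 and 8.83 in D2. Proliferation markers, 11 of 11 raised, summed to 127 CPM in D1, 22.0 in D0 and 21.3 in D2. In the joint clustering 38 D cells formed a cluster of their own, with 2381.5 CPM of these markers. The remaining D cells of joint cluster 1, also led by Acta2, had 24.3 CPM, beside 22.0 and 21.4 in joint clusters 0 and 2. The part of fibroblast, muscle and proliferation transcripts in the Id3 level of D1 was not tested. Erythroid markers were at 0 in both libraries, and the 5 leukocyte markers summed to 0.337 CPM in P and 19.8 in D.

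To set P and D side by side within states, both libraries were also clustered jointly after removal of the 10 genes, the pathway list and all genes at least 2-fold different between libraries. Of the joint clusters, 3 held at least 100 cells of each library: joint cluster 0 (3103 cells of P and 2720 of D), 1 (2571 and 1340, the one with the highest Krt14 level of the 3 in both libraries) and 2 (801 and 798). The last held 343 cells of P and 38 of D and gave no comparison. In joint cluster 2 the P cells were led by squamous genes and the D cells by uroplakins among others, so that its P and D cells were not the same state by their leading genes. In joint cluster 1 the P cells were led by Ctla2a, Nbl1 and Scnn1b and the D cells by Acta2, Ms4a10 and Htra1, with Sparc on both lists. Acta2 was at 2.18 CPM in its P cells and 178 in its D cells, so these also differed in state. In joint cluster 0, Agr2 and Cyp2f2 were among the leading genes of both libraries.

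Id1, Id3, Smad6 and Bmpr1a were higher in D in all 3 joint clusters, as were 61.5% of genes tested. Bmp7 was higher in P in all 3, as were 11% of genes. Id1 had D over P log2 ratios of 2.44 (2.36 to 2.53), 2.04 (1.92 to 2.16) and 2.08 (1.86 to 2.31) in joint clusters 0, 1 and 2. Id3 had 3.23 (2.99 to 3.47), 2.92 (2.74 to 3.09) and 2.57 (1.80 to 3.43). The median shifts within these clusters were 0.42, 0.51 and 0.30, and after subtraction Id1 was between 1.53 and 2.02 and Id3 between 2.27 and 2.81. Bmpr1a was 0.98, 1.30 and 0.51, of which 0.21 was left in joint cluster 2. Smad6 was 0.89, 1.27 and 1.31, with an interval from -0.01 to 2.82 in the last.

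The remaining genes differed between joint clusters. Bmp2 was 0.30 (-0.09 to 0.69) in joint cluster 0, -2.33 (-3.08 to -1.66) in joint cluster 1 and 1.31 (0.39 to 2.32) in joint cluster 2. In joint cluster 1, 189 UMIs in P stood against 20 in D. In the proliferating joint cluster left out for its 38 D cells, Bmp2 was at 56.6 CPM (45.2 to 70.0) in P, and 1 UMI was counted in D. Bmp4 followed the same pattern on few counts, with -1.90 (-3.18 to -0.82) in joint cluster 1 and intervals across 0 in the others. Id2 was 0.92 and 1.03 in joint clusters 0 and 1 and -0.56 (-0.78 to -0.35) in joint cluster 2, where its level was 118 CPM in P and 80.0 in D. Bmp7 was -2.15, -1.93 and -4.57, the last from 46 UMIs in P and 2 in D with an interval from -7.66 to -2.64. Bambi was 1.17, 2.23 and -0.55, the last with an interval from -1.75 to 0.60, and Nbl1 was 0.46, -0.24 and 3.12 with intervals across 0 in the first and second.

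**Figure D4:**
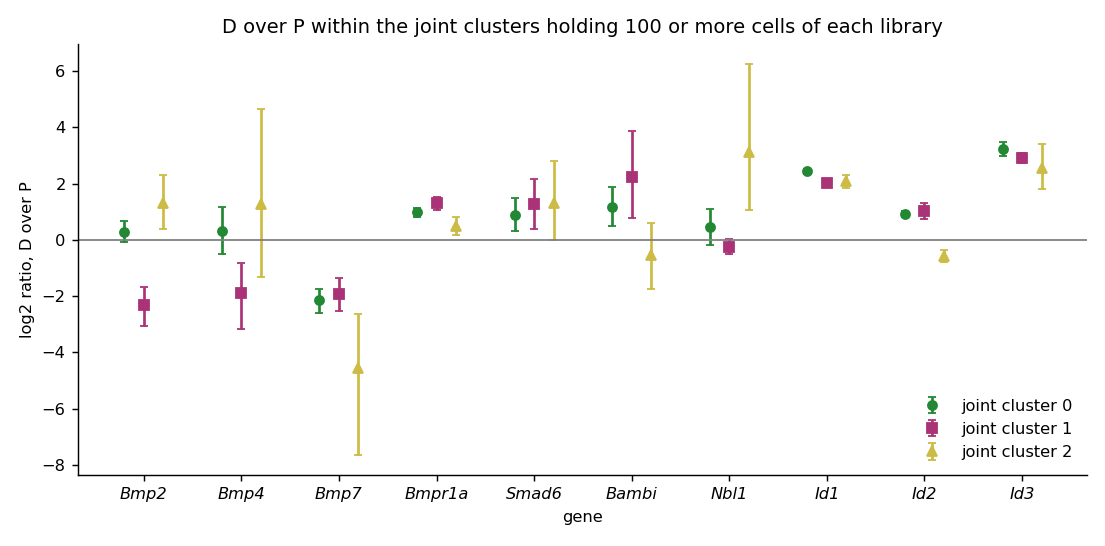
Log2 ratio (D over P) of each gene within the 3 joint clusters that held at least 100 cells of each library, with exact 95% counting intervals. Id1 lies at 2.04 or above and Id3 at 2.57 or above in each cluster, Bmp7 lies below 0 in each, and Bmp2 lies at -2.33 in joint cluster 1 but at 0.30 and 1.31 in the others.

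Within clusters other than P3 and D2, Id3 was found more often in cells that also held an Id1 UMI. In thinned cells of P0, 14.9% of Id1-positive cells (11.7 to 18.7%) and 5.23% of Id1-negative cells (4.31 to 6.30%) had an Id3 UMI. In D1 the shares were 48.6% (44.2 to 52.9%) and 34.8% (30.7 to 39.1%), and in D0 20.1% and 13.1%. In the luminal-like D2 they were 4.80% and 4.74%, and in P3 9.43% (3.13 to 20.7%) and 6.62% (4.03 to 10.1%), which overlap. Cells of a library share its preparation and dissociation, so these shares are descriptions. Smad6 was detected in 1.02% of Id1-positive and 1.02% of Id1-negative D cells.

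Early response genes, which are known to be induced by cell dissociation as well as by growth signals, summed to 1594 CPM in P and 3351 in D. All 13 listed genes were measured, and 7 passed 2-fold towards D, or 5 after the shift, beside 13.5% and 5.64% of all genes. Fosb (0.05) and Ier3 (-0.19) had log2 ratios near 0. In thinned D cells Id1 was 201 CPM (149 to 264) in the 121 cells without an early response UMI, 290 in the 1798 cells with 1 to 5, and 574 in the 2498 cells with more. The levels of Id1 in the same groups of P were 77.3, 90.8 and 96.2. D was therefore 2.60-fold above P (1.83 to 3.65) for Id1 among cells without an early response UMI, 3.20-fold in the middle group and 5.97-fold in the highest. For Id3 the ratios were 3.73-fold (2.29 to 5.99), 4.96-fold and 13.5-fold, with levels of 32.7, 24.5 and 12.9 in P while those in D were 122, 121 and 173. Among the cells without such UMIs Bmp7 and Bmp2 had no UMI in D, where the interval for 0 counts in 121 cells reaches 14.5 CPM. By cluster, over all kept cells, the early response sum was 3964 CPM in D0, 2787 in D1 and 2107 in D2, the same order as Id1. In P it was highest in P1, at 1791, where Id1 and Id3 were lowest, then 1680 in P2, 1294 in P0 and 1275 in P3. The groups by early response UMIs pool these clusters and were not matched for cell state. The part of dissociation in the levels of Id1, Id3, Bmp2 and Bmp7 was not tested.

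**Figure D5:**
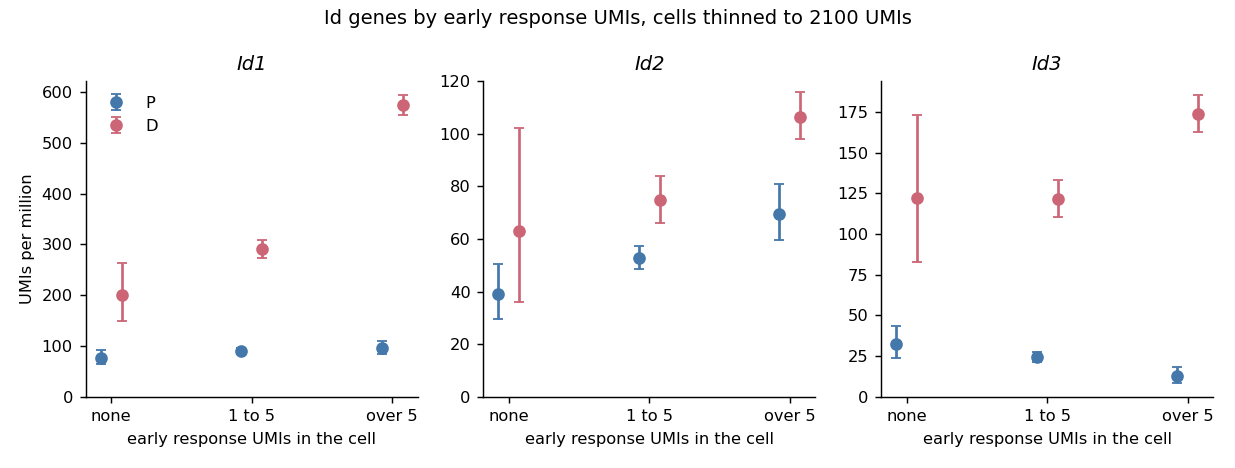
Level of Id1, Id2 and Id3 in CPM, in cells thinned to 2100 UMIs and grouped by their UMIs of 13 early response genes (none, 1 to 5, over 5), in P (blue) and D (red), with exact 95% Poisson intervals. Id1 in D lies between 201 and 574 while P stays between 77.3 and 96.2, and D lies above P in each group for Id1 and Id3.

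A list of 56 further BMP pathway genes placed the 10 in context. Of these, 15 had no UMI in either library and 25 had at least 100. Of the 25, 10 passed 2-fold towards D and 2 towards P, against the 13.5% and 4.73% of all genes. Their median log2 ratio was 0.78, or 0.36 after the shift, when 3 and 3 passed the limit. Nog, the gene of the antagonist that D medium lacked, had 0 UMIs in both libraries and is named for that reason.

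Of the 10 other ligands only Bmp3 reached 100 UMIs, with 100 in P and 31 in D, or 3.75 and 1.53 CPM and a log2 ratio of -1.30 (-1.93 to -0.70). Among receptors, the type II receptor gene Bmpr2 had 0.64 (0.51 to 0.76), Acvr1 had 0.84 (0.62 to 1.06), and Acvrl1, known best from endothelium, was lower in D at -1.24 (-1.73 to -0.77). The co-receptor gene Rgmb was at 1.01 (0.79 to 1.22) and Neo1 at 0.79. Of the Smads that carry the signal none reached 2-fold: Smad1 was -0.17 (-0.31 to -0.03) and Smad5 0.55 (0.35 to 0.75). The tested receptors and Smads, Bmpr1a included and Acvrl1 left out, had ratios between -0.17 and 0.97.

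All 5 inhibitors that act inside the cell had more CPM in D than in P, as had 77.4% of all genes tested, and also after the shift, as had 49% of genes. Smad7, a feedback inhibitor of both the BMP and the TGF-β branch, had 17.2 CPM in P against 50.4 in D, a log2 ratio of 1.55 (1.39 to 1.71). Ski, a transcriptional co-repressor of Smads, was at 1.15 (1.03 to 1.27) and Tob1, which restrains BMP signalling, at 1.35 (1.17 to 1.53). The ubiquitin ligase genes Smurf1 and Smurf2 were at 0.78 and 0.64. Smad7 was highest in D1, at 76.9 CPM (68.6 to 85.8), against 46.4 in D0 and 35.3 in D2, and lay between 15.4 and 24.4 in the P clusters.

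Of the secreted antagonists and binders, Crim1 had 40.3 CPM in P against 132 in D, a log2 ratio of 1.71 (1.61 to 1.82). Twsg1 was at 1.03 (0.89 to 1.16) and Dand5, with 42 and 75 UMIs, at 1.23 (0.67 to 1.81). Fstl1 had the largest ratio of the list, 4.75 (4.29 to 5.24), from 40 UMIs in P and 817 in D. It was 130 CPM in D1 and 19.4 and 10.8 in D0 and D2, the same order as Dcn, whose UMIs were 932 in D1, 272 in D0 and 30 in D2. Among other targets Tbx3 was at 1.35 (1.25 to 1.45) and Msx2, a homeobox target of BMP signalling, at 1.10 (0.93 to 1.27), with 65.5 CPM in D1. Msx1 was at -0.59 (-1.15 to -0.05) and Id4, with 26 and 50 UMIs, was under the minimum.

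Among transcripts of E proteins, which Id proteins bind, Tcf3 had a log2 ratio of 1.26 (1.10 to 1.42), Tcf4 0.91 and Tcf12 0.52, or 0.83, 0.49 and 0.10 after the shift. Of all genes tested, 7.71% had a higher ratio than Tcf3, 16.7% than Tcf4 and 41.3% than Tcf12. Because LY2157299 left the medium together with Noggin, TGF-β targets were read beside the BMP genes. Pmepa1, a TGF-β feedback gene, had 30.9 CPM in P against 564 in D, a log2 ratio of 4.19 (4.09 to 4.29). Ctgf was at 3.95 and Skil at 1.39, while Tgfbi was at -1.71. Pmepa1 was 1013 CPM in D1, 461 in D0 and 414 in D2. D1 was the highest D cluster for Pmepa1, Smad7 and Id3, and D0 for Id1.

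Finally, genes were ranked by the Pearson correlation of their log2 level with that of Id1, Id3 and Bmp7 over the 7 single-library clusters, as a description with no test. The points share libraries and depth, and D against P alone gives high values. The correlation also ignores the size of a difference between P and D. Closest to Id1 were Ubn1 (r = 0.997), 1810024B03Rik, Uros, Lix1 and Csad. Closest to Id3 were Cldn34c1 (r = 0.997), Gm4924 (0.993), Mapk8 (0.990), Pcif1 (0.986) and Robo1 (0.985). Their levels were 1.16 and 8.32, 7.20 and 10.1, 14.6 and 24.4, 31.6 and 40.1, and 17.9 and 45.0 CPM in P and D. Closest to Bmp7 were 5 ribosomal protein genes or pseudogenes, Rps12-ps3 (r = 0.986), Rps27rt (0.986), Rps4x (0.986), Rpl4 (0.981) and Rps15a (0.981), a class that took a larger part of UMIs in P. Their levels were 37.9 and 27.3, 254 and 150, 5210 and 3385, 2206 and 1301, and 6612 and 3823 CPM in P and D.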

How the data were processed

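Single-cell RNA of 1 P and 1 D organoid library was measured with the 10x 3′ v3 kit. The deposited matrices hold raw UMI counts per gene and barcode, without normalization; per the labels, the authors used bcl2fastq 2.19.0 and Cell Ranger 3.0.2 on GRCm38. Counts over kept cells were summed per library or cluster and divided by the total, with exact Poisson, Clopper-Pearson and conditional binomial intervals at 95%. Genes whose UMIs summed to 100 or more were compared at a limit of 2-fold. The code was tested on simulated counts.

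Clusters came from Seurat 5.3.0 in R 4.3.3 (2000 variable features less the removed genes, 25 and 21 components, resolution 0.2; joint clusters by canonical correlation anchors with 25 dimensions, resolution 0.17). Doublets were scored with Scrublet in scanpy 1.11.5 and kept, except in an alternative that left out 0.8% per 1000 barcodes. Alternatives covered scaling, cell filters, thinning, UMI minimums, early response UMIs and clustering settings.

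The genes and lists were chosen with earlier results of these data known. Named with values are the 10 genes, pathway genes at least 2-fold different, up to 2 of each role that were not, other listed genes where stated, and the 5 genes most like Id1, Id3 and Bmp7.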

Additional observations from a re-analysis of the deposited data

Results flagged for a closer look

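Id1 and Bmp2 had opposite orders of joint clusters 1 and 0 in the 2 libraries. For Id1 the log2 ratio of joint cluster 1 over joint cluster 0 was -0.24 (-0.31 to -0.16) in D and 0.17 (0.04 to 0.30) in P. For Bmp2 it was -1.0 (-1.76 to -0.31) in D and 1.63 (1.28 to 1.98) in P. With 1 library per condition these differences between libraries were not tested, and the intervals cover counting error only.

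The barcodes that the filter left out, 1376 in P and 2079 in D, also carried transcripts of these genes, given here as CPM of non-mitochondrial UMIs. In left-out D barcodes Id1 was at 599 (566 to 633), against 92.9 (80.0 to 107) in left-out P barcodes. Id3 was at 198 (179 to 218) against 31.6 (24.3 to 40.5), and Id2 at 108 (94.4 to 123) against 52.2 (42.7 to 63.3). Bmpr1a was at 72.4 (61.3 to 85.0) against 41.2 (32.7 to 51.1), and Smad6 at 12.5 (8.20 to 18.4) against 2.01 (0.547 to 5.14), from 26 and 4 UMIs. In kept cells on the same scale Id1 was at 461 in D and 95.5 in P, and Id3 at 152 and 23.0.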

How the results depend on the processing

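The counts of genes past 2-fold depended most on scaling. With mitochondrial and ribosomal protein genes left out of the totals, 2 of the 10 genes passed 2-fold towards D and 3 towards P, with a median log2 ratio of 0.53, and 5 pathway genes in D, with a median of 0.45. Scaled by the median ratio, the 10 genes gave 2 and 3 with a median of 0.45, and the pathway genes gave 3 in D with a median of 0.36. The number of the 10 at least 2-fold higher in P was 2 by the mean over cells and 2 in thinned cells. The pathway genes gave 1 in P under the stricter filter, 16 in D with no minimum of UMIs, and in cells without early response UMIs 1 in P with a median of 1.05. In that group of 121 D cells genes at 0 were put at 3 UMIs; Bmp4 reversed to 0.50 (-2.77 to 2.82, from 8 UMIs in P and 2 in D) and Nbl1 to 0.64 (-0.70 to 1.81, from 29 UMIs in P and 8 in D), both with intervals across 0, and the cause was not tested.

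Without thinning the shares of Id1-positive cells were 23.6% in P and 65.0% in D, and those of Id3 5.97% and 31.2%. With at least 2 UMIs they were 2.89% and 23.8% for Id1, and 0.783% and 7.24% for Id3. In cells without early response UMIs they were 13.2% and 33.1% for Id1, and 5.12% and 14.9% for Id3. Of 87 alternative ratios of the 10 genes, 85 kept their direction, and Id1 ranged from 2.60-fold to 4.99-fold and Id3 from 3.73-fold to 6.74-fold. The 87 leave out Bmp2, Bmp7 and Bambi in cells without early response UMIs, where each lacked UMIs in a library. From 3 to 4 of the 10 were higher in D in every joint state across the alternatives. Id1, Id3 and Bmpr1a were among them each time. Smad6 was not among them at a resolution of 0.4, nor in the 2 states set by marker UMIs, where Bambi was. The joint clustering without integration gave no cluster with at least 100 cells of each library and was not used. No paired analysis was possible because each condition held 1 library. Depth limits Bmp4, Smad6 and Bambi most, with 131, 193 and 137 UMIs over both libraries.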
